A study of Mus musculus with 8 samples.

Results

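The methionine cycle and its one-carbon branches were followed in mouse liver through 9 genes, namely Mat1a, Mat2a, Gnmt, Bhmt, Ahcy, Cbs, Cth, Pemt and Dmgdh. They were taken by symbol from a table of read counts for 19267 genes, and all 9 held enough counts to be tested. The study crossed genotype with diet to examine how loss of ELF4, an ETS transcription factor, in the intestine bears on alcohol-related liver disease. Male C57BL/6 mice started the diets at 6 weeks of age and their livers were taken at 9 weeks, after 21 days on a Lieber-DeCarli liquid diet that held either 5% (w/v) alcohol (EtOH) or maltose dextrin of equal energy (Control). Each of the 4 groups, WT-Control and WT-EtOH for WT mice and Elf4-/--Control and Elf4-/--EtOH for Elf4-/- mice, held 2 libraries of total liver RNA. Elf4-/- stands for Elf4fl/fl-Villin-Cre mice, in which the villin promoter drives Cre in the intestinal epithelium, so the hepatocytes of these mice were not the target of the deletion, and per the study's methods the WT mice were Cre mice and all mice were pair-fed. The labels do not say that the 2 libraries of a group came from separate animals, so the p-values measure only the spread between these libraries.

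In the methionine cycle, methionine is turned into S-adenosylmethionine, the methyl donor of most methylation reactions, and the S-adenosylhomocysteine left behind is split into adenosine and homocysteine. Homocysteine is either methylated again, with a methyl group from folate or from betaine (a product of choline), or leaves the cycle by transsulfuration toward cysteine and glutathione. The liver carries much of this flux, and alcohol is known to disturb it.

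Library totals ran from 6171051 to 9157362 counts. Levels below are CPM (counts relative to the library total, corrected by TMM factors), and a difference between groups is a log2 fold change with its standard error (SE), called where the adjusted p from edgeR's quasi-likelihood test was under 0.05 over all 13993 genes tested. The 9 genes together took 0.283% to 0.491% of the counts in 7 libraries and 1.28% in Elf4-/--EtOH replicate 1. That library held the highest CPM of 7 of the 9 genes, against 16.9% of all genes tested, and replicates differed most in its group, with an SD of the log2 difference between replicates of 0.68 over 9398 genes against 0.35 to 0.50 in the other groups. The log2 fold changes that rest on it are therefore given with and without it. Elf4 itself held 6 to 36 counts per library in all groups, and since the deletion is intestinal its liver level checks no label. The hepatocyte markers (8 of 8 tested) summed to 37407 to 76864 CPM, so the labelled tissue held its defining markers in every library.

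The genes lie on 7 mouse chromosomes (GRCm38, the assembly of mm10). Mat1a is at chr14:41105035-41124412, Mat2a at chr6:72432799-72439558, Gnmt at chr17:46725664-46729168, Bhmt at chr13:93616675-93637961 and Ahcy at chr2:155059310-155074497. Cbs is at chr17:31608894-31637238, Cth at chr3:157894248-157925077, Pemt at chr11:59970614-60046489 and Dmgdh at chr13:93674433-93752833, the last of them on the same chromosome as Bhmt.

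Promoter sequences from RefSeq (GRCm38.p6) were matched for 7 of the 9 genes, and those of Mat1a and Cth were not matched. The 200 bases before the start are shown for Bhmt and Cbs, the genes with the largest called differences downward under EtOH in WT, and for Mat2a, the gene with the largest called difference upward. Each runs 5′ to 3′ on the minus strand, at chr13:93637759-93637958, chr17:31637206-31637405 and chr6:72439557-72439756 respectively. Capitals mark matches to the TATA box (TATAAA), the CCAAT box (CCAAT) or the GC box (GGGCGG), searched on both strands, and matches of the same motif can overlap.
Bhmt: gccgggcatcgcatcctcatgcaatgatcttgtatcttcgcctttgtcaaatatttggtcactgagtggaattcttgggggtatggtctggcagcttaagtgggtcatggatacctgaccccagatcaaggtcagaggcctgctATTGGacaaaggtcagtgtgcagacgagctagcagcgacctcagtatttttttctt
Cbs: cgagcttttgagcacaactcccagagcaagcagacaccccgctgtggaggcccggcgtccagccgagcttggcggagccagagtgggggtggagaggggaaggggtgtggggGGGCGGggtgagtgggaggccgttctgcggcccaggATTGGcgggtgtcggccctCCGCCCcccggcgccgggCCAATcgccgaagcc
Mat2a: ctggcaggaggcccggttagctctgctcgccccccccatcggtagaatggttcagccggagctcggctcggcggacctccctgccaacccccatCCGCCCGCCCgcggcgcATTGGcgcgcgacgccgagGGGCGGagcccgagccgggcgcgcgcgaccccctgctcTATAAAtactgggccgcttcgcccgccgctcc
The Bhmt window held 1 CCAAT box and 5 CG dinucleotides, the median of all 32851 promoters. The Cbs window held 2 CCAAT boxes, 2 GC boxes and 17 CG dinucleotides. The Mat2a window held 1 TATA box, 1 CCAAT box, 3 GC boxes and 28 CG dinucleotides, above the 90th percentile of 21. Of all promoters, 9.96% held the TATA box, 29.3% the CCAAT box and 31.0% the GC box. Neither the E-box (CACGTG, in 5.26% of all promoters) nor the CRE (TGACGTCA, in 1.47%) matched in any of the 8 windows of the 7 genes, of which Pemt has 2. These are matches of letters, not sites shown to bind a factor.

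Some of these genes share sequence with other genes, which limits what their counts can separate. Of the 50-base windows in Ahcy transcripts, 68.7% also stood in another gene's transcripts, chiefly Gm4737, which held 251 to 661 counts per library. Of the Bhmt windows, 26.1% were shared, chiefly with Gm5096, which shared 76.4% of its own windows with Bhmt and held 8 to 1138 counts. Adding the counts of such near copies, a setting chosen after seeing the data, changed no call of the 9 genes in any comparison. Bhmt is also overlapped on the opposite strand by Gm15622, Dmgdh by AW495222 and Mat2a by Particl, and since the sources used here do not say whether counting used strand, reads of these pairs cannot be told apart.

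**Figure D1:**
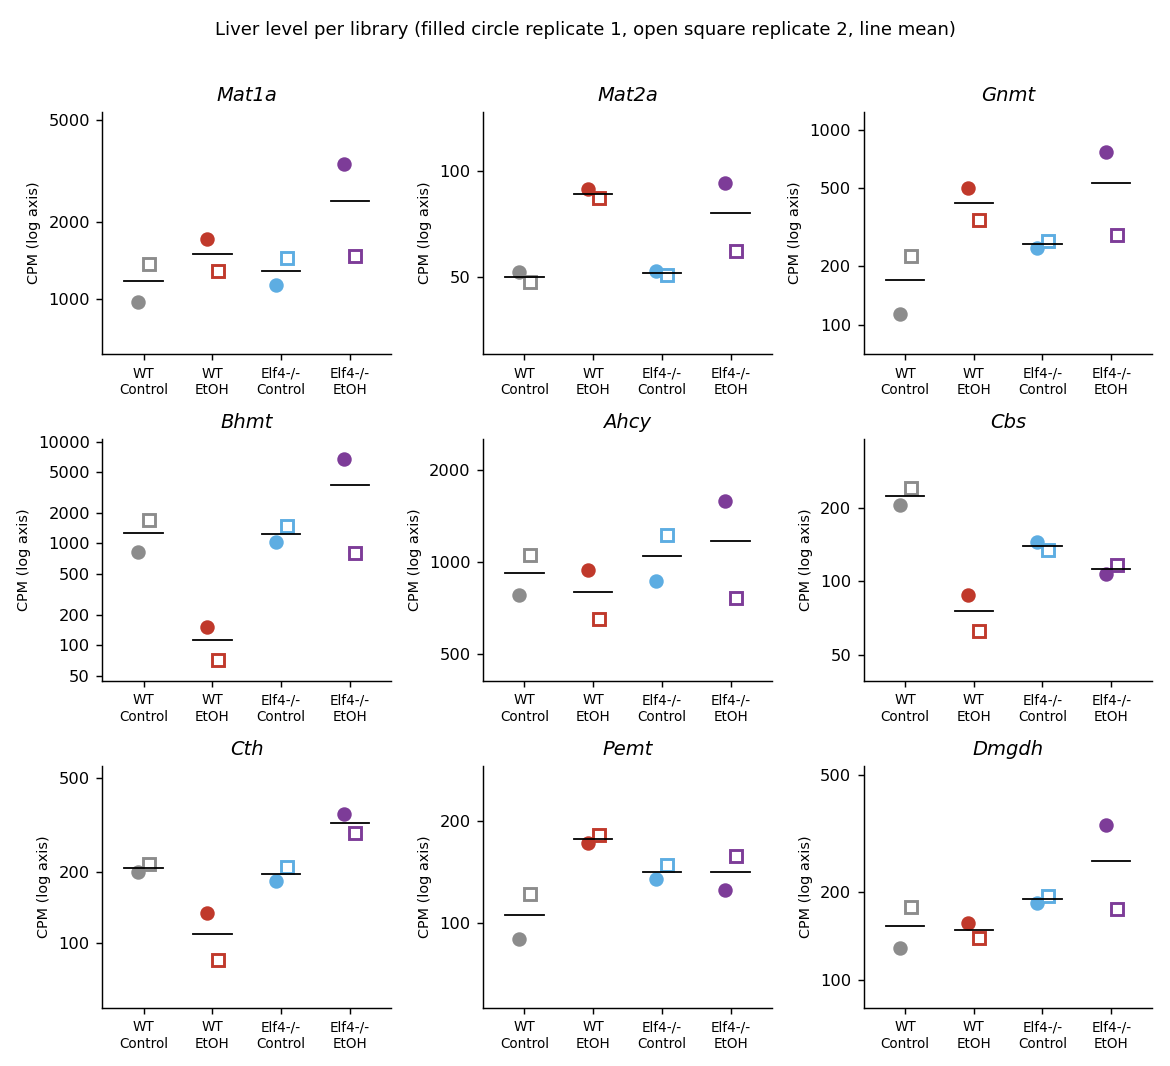
CPM (log axis) of each gene in the 8 libraries, with replicate 1 as a filled circle, replicate 2 as an open square and the group mean as a line. Bhmt was lowest in the 2 WT-EtOH libraries, at 153 and 71.6 CPM, and Elf4-/--EtOH replicate 1 stood above its replicate for 7 of the 9 genes.

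Levels can be compared between genes only per length, here as CPM per kb of annotated exon. In WT-Control livers the order of mean levels was Mat1a (338 CPM per kb), Ahcy (326), Bhmt (219), Gnmt (139.9), Cth (74.5), Pemt (50.3), Dmgdh (44.9), Cbs (29.8) and Mat2a (11.1). The replicates of neighbours overlapped from Mat1a to Gnmt and between Pemt and Dmgdh, so the order within those stretches was not separated. In WT-EtOH livers Bhmt stood 7th, at 19.5 CPM per kb, level with Mat2a at 19.2, and Cbs was last at 10.1. The per-length level of Cbs is the least certain, since its annotated exons of 7485 bases sum many alternative transcripts.

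EtOH feeding of WT mice moved the genes of the cycle in different directions. Bhmt, Cbs and Cth fell, and Mat2a and Pemt rose, while Mat1a, Gnmt, Ahcy and Dmgdh did not pass the test. That is 5 of 9 called, 2 higher and 3 lower, where 21.6% of all genes tested were called (10.8% in each direction). With library totals in place of TMM the 9 genes gave 3 higher and 2 lower, and all genes 3422 higher and 634 lower. The median log2 fold change of the 9 genes was -0.05, beside 0.01 over all genes tested. The groups did not overlap for 6 of the 9 genes, against 66.8% of all genes tested, a share near that background.

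The pair of genes for methionine adenosyltransferase, the enzyme that makes S-adenosylmethionine, gave 1 call, and the difference between them was not tested. Mat2a, the form used mainly outside the mature liver, measured 51.5 and 48.2 CPM in the WT-Control libraries and 88.8 and 83.7 CPM under EtOH, so the groups did not overlap. Its log2 fold change was 0.79 (SE 0.22, adjusted p = 0.0334), a 1.73-fold rise. With a library left out the value ran from 0.74 to 0.84, and the call was not kept in every such fit. Mat1a, the form of the adult liver, went from 972 and 1369.8 CPM to 1709 and 1282 CPM, with overlapping groups and a log2 fold change of 0.35 (SE 0.39, adjusted p = 0.548).

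Among the methyltransferases, Pemt makes phosphatidylcholine by methylating phosphatidylethanolamine, and Gnmt methylates glycine and so disposes of surplus S-adenosylmethionine. Pemt measured 89.9 and 122 CPM under Control and 173 and 183 CPM in WT-EtOH, without overlap, and rose by 0.75 on the log2 scale (SE 0.22, adjusted p = 0.0405). With a library left out this ran from 0.54 to 0.98, and the call of Pemt was not kept in every such fit. Gnmt measured 114 and 224 CPM under Control and 500.1 and 342 CPM in WT-EtOH, also without overlap. Its log2 fold change of 1.32 (SE 0.45) missed the threshold at an adjusted p of 0.0639. It passed with DESeq2 (adjusted p = 0.00838), with no filter (0.0411), with library totals alone (0.0161) and in a fit of the 4 WT libraries only (0.0211). It stayed uncalled with DESeq2's size factors, without mitochondrial genes, with a filter on mean counts and with the replicate block. Ahcy, which splits S-adenosylhomocysteine, measured 777 and 1054 CPM under Control and 937 and 651 CPM in WT-EtOH, with overlap and a log2 fold change of -0.21 (SE 0.38, adjusted p = 0.728).

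Homocysteine is methylated from betaine by BHMT, which leaves dimethylglycine, and DMGDH oxidises that dimethylglycine in mitochondria. Bhmt measured 831 and 1688 CPM in WT-Control against 153 and 71.6 CPM in WT-EtOH, so the higher EtOH library lay far below the lower control library. The log2 fold change was -3.49 (SE 0.84, adjusted p = 0.0179), an 11.2-fold lower level. With a library left out the value ran from -4.13 to -2.89, or 17.6-fold to 7.41-fold lower, and the call was lost without WT-Control replicate 2 (adjusted p = 0.0809), WT-EtOH replicate 1 (0.0653) or WT-EtOH replicate 2 (0.134). Dmgdh measured 129 and 178 CPM under Control and 156 and 139 CPM in WT-EtOH, inside the control range, with a log2 fold change of -0.05 (SE 0.30, adjusted p = 0.919).

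The mRNA levels of both enzymes of transsulfuration fell. Cbs, which joins homocysteine to serine, measured 206 and 241 CPM under Control and 88.0 and 62.5 CPM in WT-EtOH, a log2 fold change of -1.57 (SE 0.23, adjusted p = 0.00281). Cth, which splits the resulting cystathionine to release cysteine, measured 200.1 and 216 CPM under Control and 134 and 84.7 CPM in WT-EtOH, a log2 fold change of -0.93 (SE 0.26, adjusted p = 0.0298). The groups of neither gene overlapped. Of the 9 genes, Cbs alone kept its call whichever of the 8 libraries was left out. How many of the 9 genes were called moved with the library left out, and so did the count over all genes tested. With library totals in place of TMM the median of all genes shifted by 0.43 in this contrast, the call of Cth was lost (log2 fold change -0.51, adjusted p = 0.141), and Ahcy (0.22) and Dmgdh (0.37) turned positive.

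The cell types in these bulk samples moved with the same contrast. All 7 Kupffer cell markers tested rose, with summed levels of 181 to 246 CPM under Control and 565 to 629 CPM under EtOH, as did all 6 sinusoidal endothelial markers (46.0 to 78.9 CPM against 231 to 280 CPM). Of 6 stellate cell markers, 4 rose (25.8 to 64.1 CPM against 226 to 297 CPM), and 1 of 3 lymphocyte and neutrophil markers tested did (12.3 to 15.5 CPM against 32.1 to 37.8 CPM). The summed levels of these 4 lists were higher under EtOH than under Control in the WT libraries, with no overlap. Of 8 hepatocyte markers, 1 fell and 0 rose, with summed levels of 55438 to 76864 CPM against 37407 to 43384 CPM, and 0 of 5 bile duct markers passed (108 to 144 CPM against 67.3 to 71.6 CPM). Of 3 intestinal epithelium markers tested 0 passed (165 to 203 CPM against 196 to 256 CPM), and the 1 pancreatic acinar marker found, which was too low to test, stayed at 0 to 0.37 CPM in these libraries. The share of counts from the mitochondrial genome was 33.7% and 23.4% under Control and 12.5% and 10.8% under EtOH. Their part in the changes of Bhmt, Cbs, Cth, Mat2a and Pemt was not tested, and in bulk RNA fewer cells of a type and less RNA per cell cannot be told apart.

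**Figure D2:**
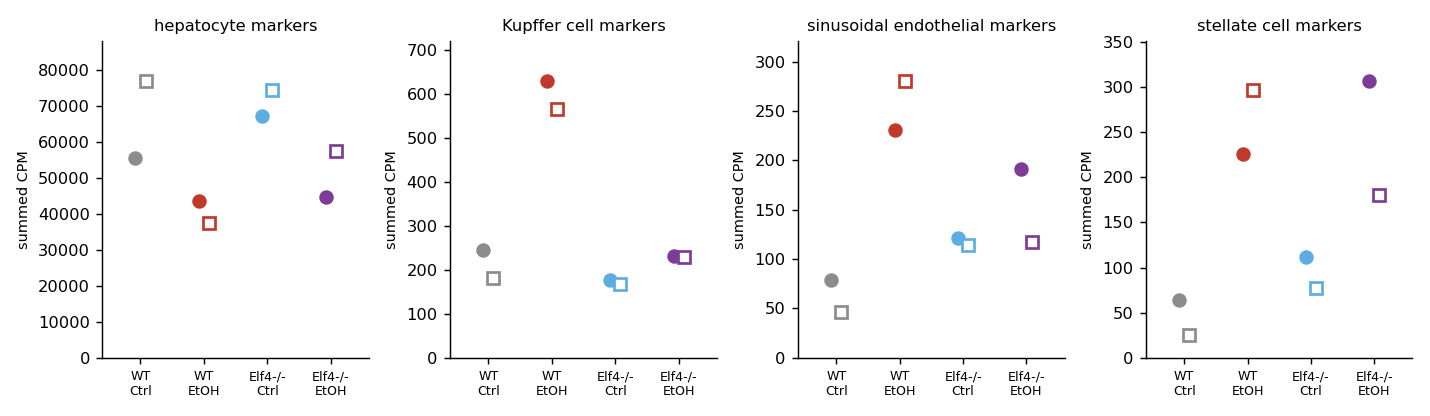
Summed CPM of the markers of 4 liver cell types in each of the 8 libraries, replicate 1 filled and replicate 2 open. The Kupffer and endothelial sums were highest in the 2 WT-EtOH libraries, where the hepatocyte sums of 37407 and 43384 CPM were the lowest.

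In Elf4-/- mice none of the 9 genes passed the test for EtOH against Control with edgeR, which called 2.89% of all genes tested. The count was also 0 with DESeq2, which called 789 genes. With edgeR, 4 of the 9 had an unadjusted p under 0.05, against 21.2% of all genes tested. The median log2 fold change of the 9 genes was 0.56, beside 0.01 over all genes, and 8 of the 9 values were positive, against 50.9% of all genes tested, with Pemt all but at 0. If Elf4-/--EtOH replicate 1 was dropped the median of the 9 genes was 0.16 with 5 values positive, and if replicate 2 was dropped it was 0.83 with 7 positive. The groups did not overlap for 5 of the 9 genes, against 52.2% of all genes tested.

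The replicates of Elf4-/--EtOH lay far apart for most of the genes. Bhmt measured 1026 and 1472 CPM in Elf4-/--Control and 6692 and 798 CPM in Elf4-/--EtOH, so 1 EtOH library lay above and the other below both controls. Its log2 fold change of 1.58 (SE 0.78, adjusted p = 0.275) was -0.65 without replicate 1 of Elf4-/--EtOH and 2.40 without replicate 2. Mat1a measured 1133 and 1441 CPM in Elf4-/--Control and 3363 and 1466 CPM in Elf4-/--EtOH, so both EtOH libraries lay above the controls, replicate 2 only just. Its log2 fold change of 0.91 (SE 0.39, adjusted p = 0.22) was 0.19 if replicate 1 was dropped and 1.37 if replicate 2 was.

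For Cth, Mat2a and Gnmt both EtOH libraries also lay above the controls. Cth measured 182 and 209 CPM in Elf4-/--Control and 352 and 291 CPM in Elf4-/--EtOH, without overlap, with a log2 fold change of 0.72 (SE 0.25, adjusted p = 0.148). Mat2a measured 52.0 and 50.7 CPM against 92.5 and 59.2 CPM, without overlap, a log2 fold change of 0.56 (SE 0.22, adjusted p = 0.186). Gnmt measured 248 and 268 CPM against 771 and 288 CPM, also without overlap, a log2 fold change of 1.04 (SE 0.45, adjusted p = 0.221). With replicate 1 of Elf4-/--EtOH dropped the log2 fold changes were 0.57 for Cth, 0.20 for Mat2a and 0.16 for Gnmt, and with replicate 2 dropped 0.83, 0.83 and 1.56. Each of these fits keeps 1 library of Elf4-/--EtOH and so holds no spread within that group. Only the sizes are therefore given.

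The other 4 genes differed less. Cbs, the only gene with a negative value, measured 145 and 135 CPM in Elf4-/--Control and 108 and 117 CPM in Elf4-/--EtOH, a log2 fold change of -0.31 (SE 0.22, adjusted p = 0.447). Pemt, at 135 and 148 CPM against 125 and 158 CPM, overlapped fully, with a log2 fold change of 0.00021 (SE 0.22). Ahcy measured 864 and 1220.5 CPM against 1582 and 759 CPM, and Dmgdh 184 and 193 CPM against 336 and 175 CPM, so for both genes 1 EtOH library lay above and the other below the controls. The Kupffer sums of 168 to 176 CPM in Elf4-/--Control and 229 to 232 CPM in Elf4-/--EtOH, and the mitochondrial shares of 18.5% to 18.7% and 18.3% to 22.1%, moved less than in WT. The hepatocyte sums were lower under EtOH without overlap (67238 to 74288 CPM against 44752 to 57423 CPM). The markers did not fall as a set, since 4 of the 8 had a positive log2 fold change and their median was -0.05. The stellate sums (77.7 to 112 CPM against 180.03 to 307 CPM) and the lymphocyte and neutrophil sums (10.3 to 15.3 CPM against 18.6 to 23.9 CPM) were higher without overlap, and the endothelial sums overlapped (114 to 121 CPM against 117 to 191 CPM). Of all these markers 1 was called, a Kupffer marker, and the part of these shifts in the values of the 9 genes was not tested.

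**Figure D3:**
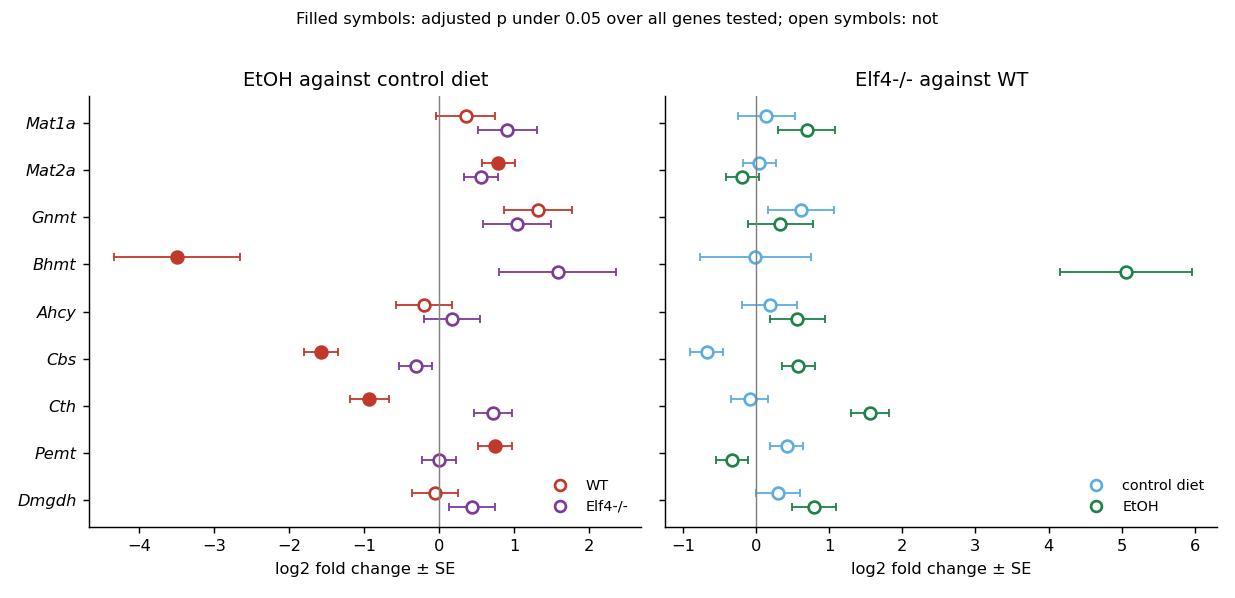
Log2 fold changes with SE of the 9 genes, on the left for EtOH against Control in WT and in Elf4-/-, on the right for Elf4-/- against WT under each diet. Filled symbols mark an adjusted p under 0.05 over all genes tested, which only Mat2a, Bhmt, Cbs, Cth and Pemt reached, and only for EtOH in WT.

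Under the control diet the genotypes gave 0 calls among the 9 genes with edgeR, which called 0.0143% of all genes tested. DESeq2 also called 0 of the 9, and 70 genes in all. With edgeR, 1 of the 9 passed an unadjusted p of 0.05, against 7.31% of all genes tested. That gene was Cbs, at 206 and 241 CPM in WT-Control and 145 and 135 CPM in Elf4-/--Control, a log2 fold change of -0.68 (SE 0.22, unadjusted p = 0.012, adjusted p = 0.514). The median log2 fold change of the 9 genes was 0.14, beside 0.01 over all genes. Bhmt and Cth lay close to 0, at -0.01 (SE 0.76) and -0.09 (SE 0.25), and their Elf4-/--Control libraries overlapped the WT-Control range. The groups did not overlap for 4 of the 9 genes, against 38.5% of all genes tested.

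Under EtOH, Bhmt and Cth stood higher in Elf4-/- than in WT livers in every library, but missed the threshold in the fit of all libraries. Bhmt, at 153 and 71.6 CPM in WT-EtOH, measured 6692 and 798 CPM in Elf4-/--EtOH, a log2 fold change of 5.06 (SE 0.90, adjusted p = 0.0907). Cth, at 134 and 84.7 CPM in WT-EtOH, measured 352 and 291 CPM in Elf4-/--EtOH, a log2 fold change of 1.56 (SE 0.26, adjusted p = 0.0648). The count of calls was 0 of 9 with edgeR, beside 0.143% of all genes tested, and 4 at an unadjusted p under 0.05 (Bhmt, Cth, Cbs and Dmgdh), against 10.5% of all genes tested. DESeq2 called both Bhmt (adjusted p = 7.73e-05) and Cth (9.06e-06), among 178 genes in all. With no filter edgeR also called both (0.0153 and 0.0239), among 50 genes in all. With library totals 0 of the 9 genes were called, and the fit of the 4 libraries of this contrast alone called 0 genes.

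Leaving out 1 library of Elf4-/--EtOH removes the spread within that group, and the remaining library is assumed to vary like the other groups. Only the sizes are therefore given here. Without replicate 1 the log2 fold changes were 2.84 for Bhmt and 1.42 for Cth. Without replicate 2 they were 5.89 for Bhmt, 1.68 for Cth and 1.18 for Dmgdh. The size for Cth thus moved little, while that for Bhmt depended on the library kept.

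The remaining genes depended on the same library or differed less. Mat1a, Gnmt and Ahcy had log2 fold changes of 0.69 (SE 0.39), 0.33 (SE 0.45) and 0.56 (SE 0.38), which became -0.02, -0.54 and -0.06 without Elf4-/--EtOH replicate 1. Cbs, at 88.0 and 62.5 CPM in WT-EtOH and 108 and 117 CPM in Elf4-/--EtOH, had a log2 fold change of 0.58 (SE 0.22, adjusted p = 0.404) that stayed between 0.35 and 0.84 with any library left out. Mat2a (-0.19, SE 0.22) and Pemt (-0.33, SE 0.22) had negative values. Across the 9 genes the median was 0.58, beside 0.00093 over all genes tested, but it was -0.02 when Elf4-/--EtOH replicate 1 was dropped and 0.99 when replicate 2 was. The groups did not overlap for 5 of 9 genes, against 41.3% of all genes tested. Of the 7 Kupffer markers 2 fell in this contrast, from summed levels of 565 to 629 CPM to 229 to 232 CPM. The endothelial sums were also lower without overlap (231 to 280 CPM against 117 to 191 CPM), the hepatocyte sums higher (37407 to 43384 CPM against 44752 to 57423 CPM) and the mitochondrial shares higher (10.8% to 12.5% against 18.3% to 22.1%). The part of these in the values of Bhmt and Cth was not tested.

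**Figure D4:**
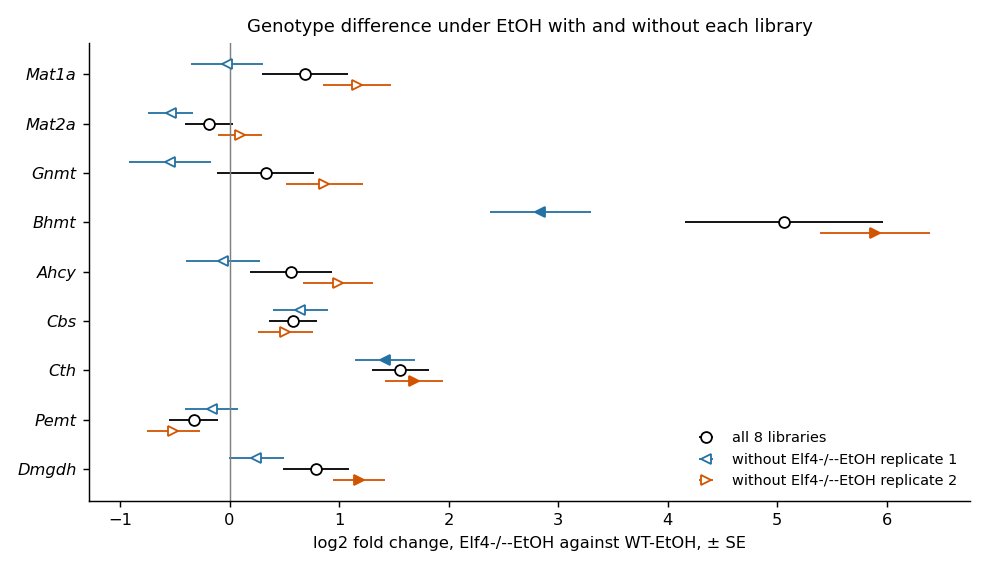
Log2 fold change with SE of Elf4-/--EtOH against WT-EtOH for each gene, from all 8 libraries and without each Elf4-/--EtOH library, filled where the adjusted p was under 0.05. Bhmt and Cth stayed above 0 in both leave-out fits, while Mat1a, Gnmt and Ahcy dropped to 0 or below without replicate 1. The leave-out fits hold no spread within Elf4-/--EtOH, so their filled symbols do not measure it.

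The difference between the diet effects of the genotypes was tested as an interaction, the diet effect in Elf4-/- minus that in WT. edgeR called 0 of the 13993 genes tested (0%), with 1411 genes (10.1%) and 4 of the 9 at an unadjusted p under 0.05. Those 4 were Bhmt at 5.07 (SE 1.14, adjusted p = 0.238), Cth at 1.64 (SE 0.36, adjusted p = 0.23), Cbs at 1.26 (SE 0.31, adjusted p = 0.273) and Pemt at -0.75 (SE 0.32, adjusted p = 0.466). With Elf4-/--EtOH replicate 1 dropped the value of Bhmt was 2.85 (adjusted p = 0.0786) and Cth had an adjusted p of 0.0937. With replicate 2 dropped both were called, Bhmt at 5.90 (adjusted p = 0.00199) and Cth at 1.77 (0.0482). DESeq2 called 98 genes, among them Bhmt (adjusted p = 0.0327) and Cth (0.0073). The interaction shares all 8 libraries with the contrasts above.

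Averaged over both genotypes, EtOH raised Mat2a by 0.68 (SE 0.16, adjusted p = 0.012) and Gnmt by 1.18 (SE 0.32, adjusted p = 0.0226), and Cbs fell by 0.94 on the log2 scale (SE 0.16, adjusted p = 0.00268). These 3 of 9 stand beside 28% of all genes tested. Cbs kept its call whichever library was left out. Gnmt lost it without WT-Control replicate 1 (adjusted p = 0.0781), WT-EtOH replicate 1 (0.0787), Elf4-/--Control replicate 1 (0.0787) or Elf4-/--Control replicate 2 (0.0739), and Mat2a without Elf4-/--Control replicate 2 (0.053). Bhmt averaged -0.95 (SE 0.54, adjusted p = 0.215). This was -2.07 without Elf4-/--EtOH replicate 1, where its value in Elf4-/- was also negative, and -0.55 without replicate 2.

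The neighbouring pathways were described through 96 further genes in 8 lists, of which 94 were tested. EtOH in WT called 29 of them, 14 higher and 15 lower, or 30.9%, beside the 21.6% of all genes tested. With library totals 31 were called, 24 higher and 7 lower. The count moved from 10 to 36 with a library left out. In Elf4-/- mice 3 of the 94 were called, all higher, or 3.19%, near the 2.89% of all genes tested. Both genotype contrasts and the interaction called 0 of them with edgeR. Averaged over both genotypes, 30 of the 94 were called, or 31.9%, beside 28% of all genes tested. Of the 26 genes named below with a call in WT, 8 kept it whichever library was left out (Gamt, Tpmt, Etnk2, Ggh, Ftcd, Oaz1, Mmadhc and Tcn2). With library totals 6 lost it (Ahcyl2, Dnmt3a, Pipox, Slc19a1, Mmaa and Mmab).

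**Figure D5:**
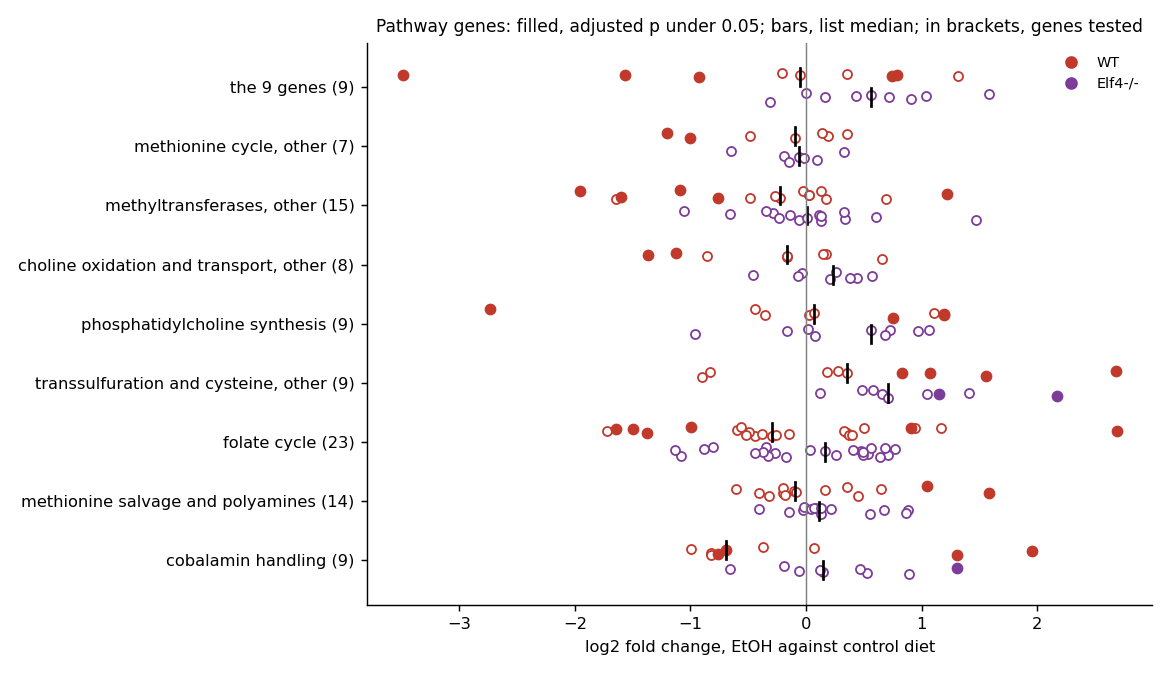
Log2 fold changes of EtOH against Control for the 9 genes and the 8 other lists, in WT and in Elf4-/-, filled where the adjusted p was under 0.05, with list medians as bars. Called genes in WT lie on both sides of 0 in several lists, whereas the 3 called in Elf4-/- all lie above it.

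Around the cycle itself, 2 of 7 other genes were called in WT, both lower (28.6%, beside 21.6% of all genes tested). They were Bhmt2, which encodes another homocysteine methyltransferase, at -1.20 (adjusted p = 0.0107), and Ahcyl2, at a 2.01-fold lower level (adjusted p = 0.0181). Of 15 other methyltransferases, 4 fell and 1 rose (33.3% called). Gamt, which makes creatine, was at -1.96 (adjusted p = 0.00242), Tpmt at -1.60, the DNA methyltransferase gene Dnmt3a at -1.09, and Icmt, which methylates prenylated proteins, at 1.22.

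Of 8 other genes of choline oxidation and transport, 2 fell and 0 rose (25% called, near the 21.6% of all genes tested). The betaine carrier gene Slc6a12 was at -1.37 and Pipox, which oxidises sarcosine, at -1.13 in WT. In phosphatidylcholine synthesis, 3 of 9 genes tested rose in WT (Pcyt1a 1.20, Chpt1 1.20 and Cept1 0.76), and Etnk2, an ethanolamine kinase gene, fell by 2.74 (adjusted p = 0.0013). The share called in this list was 44.4%. Pcyt1a, Chpt1 and Cept1 encode steps that make phosphatidylcholine from choline, beside Pemt, which makes it by methylation.

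Downstream of Cbs and Cth, 4 of 9 genes of sulfur and cysteine metabolism rose in WT and 0 fell (44.4% called, beside 21.6% of all genes tested). Suox, the sulfite oxidase gene, rose by 1.56 in WT (adjusted p = 0.00772) and by 2.18 in Elf4-/- (adjusted p = 0.00972), and Bpnt1 by 0.83 and 1.15. Sqor, which oxidises sulfide, rose by 1.07 in WT, and Csad, a taurine synthesis gene, by 2.68, from 89.9 and 23.9 CPM to 208 and 521 CPM. The value for Csad ran from 1.86 to 3.92 with a library left out, and its call was lost without WT-Control replicate 2 (adjusted p = 0.0691) or WT-EtOH replicate 2 (0.116).

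In the folate cycle, which supplies the other methyl group for homocysteine, 2 of 23 genes tested rose and 4 fell in WT. That is 26.1% called, beside 21.6% of all genes tested. Ggh, which trims folate polyglutamates, rose by 2.69 (adjusted p = 0.00202) from a low level of 2.05 and 2.94 CPM. Ftcd fell by 1.64 and the folate carrier gene Slc19a1 by 1.38 on the log2 scale, and Mthfs was 2.83-fold lower. Of 14 genes of methionine salvage and polyamines, 2 rose and 0 fell (14.3% called, below the share of all genes). Odc1 rose by 1.05 and Oaz1 by 1.58, which encode ornithine decarboxylase and the antizyme that restrains it. Of 9 genes of cobalamin handling (44.4% called), 2 rose (Mmadhc 1.96, Tcn2 1.31) and 2 fell (Mmaa, -0.69, and Mmab, -0.76). DESeq2 called neither Mmaa (adjusted p = 0.0559) nor Mmab (0.0803). Mmadhc also rose in Elf4-/-, by 1.31 (adjusted p = 0.0358), a call lost with the replicate block (0.0598) and in the fit of the 4 Elf4-/- libraries alone (0.0853). In that smaller fit Suox (0.0709) and Bpnt1 (0.0949) lost their calls in Elf4-/- as well, and all 3 lost them with either Elf4-/--Control library left out.

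For each of the 9 genes, the gene of the most alike profile was found by Pearson's r of log2 CPM over the 8 libraries, among the 9398 genes that averaged 50 counts or more. The values describe these libraries, which share their groups and depth. They include Elf4-/--EtOH replicate 1, and none was computed without it. Bhmt was most like Gm5096 (r = 0.981), its near copy in sequence, so shared reads could enter that value. Mat2a was most like Plaa (r = 0.996) and Hmox1, the heme oxygenase gene (r = 0.993). Cbs was most like Kdm5b (0.986), Cth like Pigg (0.970), Pemt like Npm1 (0.992), Gnmt like the glycolysis gene Pgam1 (0.985), Mat1a like Zfp746 (0.967), Ahcy like Slc25a51 (0.976) and Dmgdh like the chemokine gene Ccl9 (0.959). Between the 9 genes themselves, r was highest for Bhmt with Cth (0.911) and lowest for Mat2a with Cbs (-0.811).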

How the data were processed

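Liver RNA of 8 libraries in 4 groups was measured. According to the methods of the study, RNA was extracted by the authors with Trizol. They made libraries with a Vazyme kit, sequenced paired ends on an Illumina HiSeq, ran FastQC, mapped reads to mm10 with HISAT2, converted alignments with samtools, counted with HTSeq and tested with DESeq2. Tool versions, the gene annotation, the strand setting and what was done with reads that fit more than 1 gene were not given in the sources used here. The deposited table holds raw read counts per gene symbol for 19267 genes, with no normalization by the authors.

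Genes were filtered with filterByExpr, which left 13993 genes with at least 99.8% of each library's counts. TMM factors and edgeR 4.0.16 (R 4.3.3) quasi-likelihood tests were used in 1 fit of the 4 group means over all 8 libraries with no covariate (biological coefficient of variation 22.7%), with Benjamini-Hochberg adjustment and a threshold of 0.05. Alternatives were DESeq2 1.42.0, its size factors, library totals, no mitochondrial genes, other filters, the 4 libraries of a contrast alone, a replicate block and leaving out each library. The fit was also run on simulated counts, with changes set in WT-EtOH only and each gene's spread alike in all groups. That run does not cover the wider spread of Elf4-/--EtOH. Symbols were matched to GENCODE M21 (98.7% of 19267) for coordinates and transcript windows.

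The 9 genes and the lists were chosen with earlier results of these data known. All 9 genes are named, with the genes of the highest correlation to each. From each other list, called genes were named by smallest adjusted p, at most 4 for EtOH in WT and 3 for any other contrast. Of the markers, Ly6g, Cdx1, Cdx2, Cpa1, Pnlip, Ctrb1, Prss2 and Amy2a5 were not analysed here. A gene of the list of choline oxidation and transport is not reported here and was left out of the counts of that list and of all lists.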

Additional observations from a re-analysis of the deposited data

Results flagged for a closer look

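For 3 of the 9 genes and 4 genes of the other lists, every library of a group moved one way under a contrast and every library of the other group the opposite way, so that neither pair of groups overlapped. Only the 9 genes and the named genes of the lists were searched, and how many of all genes tested met the same rule was not counted. In a single contrast the groups did not overlap for 38.5% to 66.8% of all genes tested. The difference itself was tested as the interaction (diet effect in Elf4-/- minus diet effect in WT, log2 scale, 2 libraries a group). None of these genes passed after adjustment. For Cth the diet contrasts differed in sign, lower in WT and higher in Elf4-/- in all libraries, with an interaction of 1.64 (SE 0.36, adjusted p = 0.23). For Cbs it was the genotype contrasts, lower in Elf4-/- under Control and higher under EtOH, with 1.26 (SE 0.31, adjusted p = 0.273), and for Pemt the reverse, with -0.75 (SE 0.32, adjusted p = 0.466). Among the other genes the values were 1.34 (SE 0.34, adjusted p = 0.273) for Ahcyl2, in both pairs of contrasts, 1.29 (SE 0.31, adjusted p = 0.273) for Mmab in the diet contrasts, and, in the genotype contrasts, -0.89 (SE 0.34, adjusted p = 0.424) for Icmt and -2.01 (SE 0.46, adjusted p = 0.258) for Ggh.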

How the results depend on the processing

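Of the log2 fold changes of the 9 genes, 441 of the values under other settings kept both direction and side of the threshold, 13 crossed it upward, 1 crossed it downward and 13 changed sign. With a library left out, 356 kept both, 15 crossed upward, 24 crossed downward and 37 changed sign. DESeq2 called 789 genes and 10 other pathway genes for EtOH in Elf4-/-, 70 genes for genotype under Control, 178 genes, 8 other pathway genes and 2 of the 9 for genotype under EtOH, and 98, 1 and 2 for the interaction. With no filter, genotype gave 14 genes under Control and, under EtOH, 50 genes, 1 other pathway gene and 2 of the 9, and the interaction 7. The fit of 4 libraries alone gave 40 genes and 0 other pathway genes for EtOH in Elf4-/-, and 22 and 0 genes for genotype under Control and EtOH. Library totals alone gave 5 genes for genotype under Control and 5 of the 9 for the mean diet effect. The medians of all genes shifted under library totals by 0.43 in WT, -0.03 in Elf4-/-, 0.23 and -0.23 for genotype under Control and EtOH, -0.46 for the interaction and 0.20 for the mean diet effect.

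Under library totals the sign turned for EtOH in WT for Ahcy (0.22) and Dmgdh (0.37), for genotype under Control for Bhmt (0.19) and Cth (0.14), for the interaction of Ahcy (-0.085) and for the mean diet effect of Ahcy (0.17) and Cth (0.089). With no filter Bhmt under Control became 0.022. Pemt for EtOH in Elf4-/-, near 0 throughout, became -0.00020 with DESeq2, -0.00052 with its size factors, -0.023 with library totals and -0.0063 with no filter.

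Replicate numbers gave no sign of pairing, with correlations of the replicate differences between groups from -0.13 to 0.11. With the replicate block the 9 genes gave 5 calls for EtOH in WT and 3 for the mean diet effect as before, 240 genes were called for EtOH in Elf4-/- and 10 for genotype under EtOH, Pemt for EtOH in Elf4-/- became -0.0087, and of the named genes Mmadhc lost its call in Elf4-/- (adjusted p = 0.0598).

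With each library left out in turn, the counts of the 9 genes ran from 1 to 6 for EtOH in WT, 0 to 4 for EtOH in Elf4-/-, 0 to 3 for genotype under EtOH, 0 to 2 for the interaction and 1 to 4 for the mean diet effect. The counts of all genes ran from 626 to 4023, 9 to 1683, 0 to 366, 0 to 139 and 2115 to 4697 in that order, and from 0 to 53 for genotype under Control. The counts of other pathway genes ran from 10 to 36, 0 to 13, 0 to 12 and 0 to 4 in the first 4 of these. The log2 fold changes that changed sign ran, for EtOH in WT, from -0.49 to 0.031 for Ahcy and -0.27 to 0.20 for Dmgdh. For EtOH in Elf4-/- they ran from -0.65 to 2.40 for Bhmt, -0.46 to 0.58 for Ahcy, -0.20 to 0.16 for Pemt and -0.11 to 0.81 for Dmgdh. For genotype under Control they ran from -0.086 to 0.41 for Mat1a, -0.43 to 0.60 for Bhmt, -0.079 to 0.43 for Ahcy and -0.19 to 0.018 for Cth. For genotype under EtOH they ran from -0.022 to 1.16 for Mat1a, -0.54 to 0.094 for Mat2a, -0.54 to 0.87 for Gnmt and -0.059 to 0.99 for Ahcy. For the interaction they ran from -0.16 to 1.02 for Mat1a, -0.58 to 0.046 for Mat2a, -1.16 to 0.25 for Gnmt, -0.25 to 0.80 for Ahcy and -0.059 to 0.87 for Dmgdh. For the mean diet effect they ran from -0.33 to 0.19 for Ahcy, -0.30 to 0.029 for Cth and -0.082 to 0.38 for Dmgdh. The causes were not tested beyond the libraries left out. Leaving out a library leaves 1 in its group, which is assumed to vary like the others.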

Other observations

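Ratios of levels per kb within a library put pairs of these genes side by side without the scaling between libraries. Mat1a over Mat2a was 24.4 and 36.8 for WT-Control, with WT-EtOH at 24.9 and 19.8, so these overlapped. Elf4-/--Control had 28.2 and 36.8 against 47.1 and 32.0 for Elf4-/--EtOH. Bhmt over Bhmt2 was 1.68 and 3.24 for WT-Control but 0.65 and 0.35 for WT-EtOH, the only libraries in which Bhmt was the lower of the pair, while Elf4-/--Control gave 2.41 and 2.53 and Elf4-/--EtOH 12.7 and 2.23. Bhmt over Gnmt was 1.53 and 1.58 for WT-Control against 0.064 and 0.044 for WT-EtOH, while Elf4-/--Control had 0.87 and 1.15 and Elf4-/--EtOH 1.82 and 0.58. Cbs over Cth was highest in WT-Control (0.38 and 0.42) and lowest in Elf4-/--EtOH (0.11 and 0.15).

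Gm15622, which overlaps Bhmt on the opposite strand, held 1325 counts in Elf4-/--EtOH replicate 1 and 92 in replicate 2, and 27 to 160 in the other 6 libraries.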
